A study of Mus musculus with 11 samples.

Results

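Hearts of WT mice given JZL184 (WT JZL184, 3 mice) were compared with hearts of CD mice given vehicle (CD VEH, 3 mice), which are 6 of the 11 mice sequenced. Both groups stood apart from the hearts of WT mice given vehicle (WT VEH), and the comparison asks how alike they were and what still separated them over the 12238 genes, of 22608 in the table, with a mean of at least 1 CPM (read counts scaled to library size with the TMM factors of edgeR) over the 11 mice. Outside the deleted chromosome interval the hearts of WT JZL184 and CD VEH mice were nearly as close to each other as mice of the same group. All 15 tested genes of the interval and 32 of the 12223 other genes differed, among them Acta1, Angptl7, Slc16a7, Grk5 and Gsta3.

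CD mice model Williams-Beuren syndrome, a deletion of neighbouring genes in which the loss of an elastin copy is known to narrow the arteries and load the heart. They are heterozygous for a deletion of the chromosome 5 interval from Gtf2i to Fkbp6. JZL184 blocks monoacylglycerol lipase, encoded by Mgll, which breaks down the endocannabinoid 2-arachidonoylglycerol and thereby releases arachidonic acid, the substrate of eicosanoid synthesis.

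All mice were males of the C57BL/6J background between 8 and 16 weeks old, and WT mice were littermates of CD mice. WT JZL184 mice carried both copies of the interval and received 8 mg/kg of JZL184 by intraperitoneal injection over 10 days, whereas CD VEH mice carried a single copy and received the vehicle. The treatment field of the labels calls the vehicle mice untreated, whereas their titles and the methods of the study give vehicle. The other groups were WT VEH (2 mice) and CD JZL184 (3 mice given the same dose). WT JZL184 and CD VEH differ in genotype and in treatment, so within their comparison both cannot be told apart. The labels give ventricle as the source and heart as the tissue, and the letters given to the mice here are those of the table.

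The libraries held between 69660329 and 92251550 counts per mouse, with 73027006 to 87685002 in WT JZL184 and 83789585 to 86650820 in CD VEH, and 3 counts corresponded to at most 0.0429 CPM, which covers counting error only. Mitochondrially encoded transcripts made up 45% to 46.6% of the library in WT JZL184 and 43.5% to 44.7% in CD VEH, above the 39.4% to 41.2% of WT VEH and the 36.4% to 40.1% of CD JZL184. The summed CPM of 5 ventricular cardiomyocyte markers (Myh6, Myl2, Tnnt2, Tnni3 and Actc1) lay between 26800 and 36100 in WT JZL184 and between 31400 and 34000 in CD VEH, so the labelled tissue had its markers. That of 5 atrial markers lay between 110 and 218 in WT JZL184 and between 50.5 and 148 in CD VEH. CD VEH mouse A stood apart in haemoglobin transcripts, with 9010 CPM of Hbb-bs (a beta-globin chain) against 1270 and 937 in CD VEH mice C and E.

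The likeness of the groups was first measured mouse by mouse, as the root-mean-square difference in log2 CPM between 2 mice over the tested genes outside the interval. The 9 pairs of a WT JZL184 and a CD VEH mouse lay between 0.246 and 0.32, with a mean of 0.285, which corresponds to a typical difference of 1.22-fold per gene. Pairs within WT JZL184 lay between 0.263 and 0.341 (mean 0.291) and pairs within CD VEH between 0.231 and 0.253 (mean 0.239). The pairs across the groups thus overlapped with the pairs inside them, and the mean distance across the groups was 1.08 times the mean distance within. WT JZL184 mouse D was nearest to a mouse of the other group, CD VEH mouse E, at 0.246. The other 5 mice had their nearest neighbour in their own group.

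Distances to the remaining groups were larger on average. The pairs of CD VEH with WT VEH had a mean of 0.361 and those of WT JZL184 with WT VEH a mean of 0.366. Pairs of CD VEH with CD JZL184, which share the genotype, had a mean of 0.333, and pairs of WT JZL184 with CD JZL184, which share the treatment, had a mean of 0.382. The lowest distance of a WT JZL184 heart to one of WT VEH or CD JZL184, 0.293, lay within the range of the pairs of WT JZL184 with CD VEH. So did that of CD VEH mouse C to WT VEH mouse D, 0.292. CD VEH mouse C was 0.242, 0.275 and 0.278 from the 3 CD JZL184 mice, each below the mean of the pairs of WT JZL184 with CD VEH and the first below all 9 of them. Pairs share mice, so these distances describe the hearts and were not tested.

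**Figure D1:**
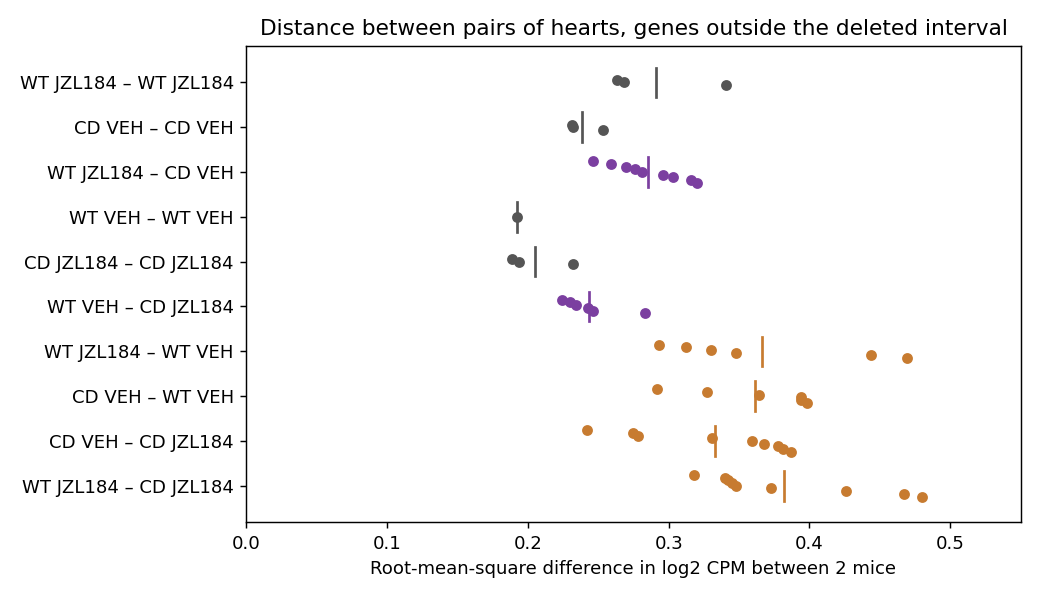
Root-mean-square difference in log2 CPM (x axis) between 2 mice over the genes outside the deleted interval, by the groups of the 2 mice (y axis); each point is a pair of mice and each line the mean, with pairs within a group in grey, pairs of WT JZL184 with CD VEH and of WT VEH with CD JZL184 in purple and the other pairs in orange. The WT JZL184 and CD VEH pairs, with a mean of 0.285, overlap with the pairs within WT JZL184 and lie below the mean of each of the 4 kinds of pair in orange.

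Gene by gene, the difference was small for most of the transcriptome and was bounded by its 95% interval. For 10485 of the 12238 tested genes (85.7%) the whole interval of the log2 fold-change lay within 0.5 of 0, and for 12027 (98.3%) it lay within 1. The half-width of the interval had a median of 0.191. In 35 genes the interval lay wholly beyond 0.5, and 21 of them were outside the deleted interval. For the remaining 1708 genes, neither called nor bounded in this way, a difference of 0.5 was not excluded by the interval.

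By the quasi-likelihood test of edgeR with Benjamini-Hochberg adjustment, 47 genes were DEGs (adjusted p under 0.05) between WT JZL184 and CD VEH, or 0.384% of the tested genes. Outside the interval there were 32 DEGs of 12223 genes (0.262%), 16 higher and 16 lower in WT JZL184 (0.131% each), while 1324 of all tested genes (10.8%) and 1309 of those outside the interval had an unadjusted p under 0.05. DESeq2 called 219 genes outside the interval (1.79%), 144 higher and 75 lower, with all 32 among them. Without WT JZL184 mouse A or B, edgeR called 62 or 55 genes, and without CD VEH mouse E it called 21.

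The same test separated each of the 2 groups from WT VEH in far more genes. Outside the interval, 3467 genes (28.4%) differed between CD VEH and WT VEH, and 3404 genes (27.8%) between WT JZL184 and WT VEH. The median absolute log2 fold-change was 0.194 for CD VEH, 0.19 for WT JZL184 and 0.0779 between the 2 groups. These comparisons share the WT VEH mice and were therefore not compared with each other. Without WT VEH mouse C they gave 297 and 551 DEGs, and without WT VEH mouse D 1065 and 953.

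Gene groups that set both hearts apart from WT VEH were close together in the direct comparison, in which the tested genes had a median log2 fold-change of -0.01. The lists were chosen with earlier results of these data known. In the direct comparison 0.384% of all tested genes were called, so a list of this size without a called gene is near that share. Of 82 cytoplasmic ribosomal protein genes, 77 were higher in CD VEH than in WT VEH (median log2 fold-change 0.46), beside 15% of all genes outside the interval, and 76 were higher in WT JZL184 than in WT VEH (0.44), beside 14.7%. Between WT JZL184 and CD VEH none of them was called, beside 0.384% of all tested genes. Their direct median was -0.03 (0.043 without CD VEH mouse A and -0.107 without CD VEH mouse C or WT JZL184 mouse B). In 80 of these 82 genes the interval of the direct difference lay within 0.5 of 0. Of 24 interferon-stimulated genes, 22 were higher in each group than in WT VEH (medians 0.71 and 0.73). None was called between the 2 groups, beside 0.384% of all tested genes, and the median was 0.03. Of these 24 genes 16 were bounded within 0.5 in the direct comparison, beside 85.7% of all tested genes, and the lowest value was -0.78. Their direct median was 0.107 without CD VEH mouse E and -0.051 without WT JZL184 mouse B.

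Transcript length moved with the comparisons against WT VEH. When genes were put into 5 bins by length, those of the shortest bin (204 to 2050 bases) had median log2 fold-changes of 0.194 in CD VEH and 0.127 in WT JZL184 over WT VEH, and those of the longest bin -0.156 and -0.146, whereas the bin medians of the direct comparison ran from -0.048 to 0.032. Ribosomal protein genes had a median length of 1107.5 bases and calcium handling and channel genes one of 4625.5 bases. With an offset for length, 36 ribosomal protein genes were higher in CD VEH than in WT VEH (median 0.22) and 39 in WT JZL184 (median 0.23), with 1 lower in each, and their direct median was 0.01. Of the interferon-stimulated genes 19 and 20 were then higher (medians 0.61 and 0.64). Of the sarcomere genes 15 and 11 were lower (-0.34 and -0.36), and of the calcium handling genes 14 and 15 (-0.35 and -0.39). The mitochondrial share of the library also moved with these comparisons, and without mitochondrial genes 77 and 76 ribosomal protein genes were higher and 14 and 13 sarcomere genes lower. The shares of all genes called over WT VEH that are given in this report belong to the main fit. No such share is set beside the counts of these refits, so the counts cannot be read against all genes.

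The lists of contractile and calcium handling genes had negative medians in both hearts over WT VEH and medians near 0 in the direct comparison. Summed markers were higher in both hearts than in WT VEH for some other cells, with 791 to 909 CPM against 576 to 579 for smooth muscle and pericytes. They were 632 to 818 against 531 to 545 for fibroblasts and 123 to 192 against 98.4 to 102 for macrophages. Erythroid sums in CD VEH (1400 to 13300 CPM) overlapped with WT VEH (1400 to 1720 CPM). Lymphocyte and neutrophil sums and skeletal muscle sums overlapped with WT VEH in both hearts. Atrial sums were lower in CD VEH (50.5 to 148 CPM) than in WT VEH (171 to 192 CPM). Cardiomyocyte markers lay at 35600 to 37500 CPM in WT VEH and overlapped with WT JZL184 alone. The part of these cells in the list values was not tested. Of 30 sarcomere and Z-disc genes, which build the contractile apparatus, 14 were lower in CD VEH than in WT VEH (13.4% of all genes were). In WT JZL184 13 were lower (13.2% of all), and the medians were -0.36 and -0.33. The direct median of these genes was 0.01, with Acta1 as the single called gene, beside 0.384% of all tested genes. Direct values of this list ran from -0.53 to 1.95, and 23 of the 30 genes were bounded within 0.5, beside 85.7% of all tested genes. Their direct median was -0.084 without WT JZL184 mouse A and 0.096 without WT JZL184 mouse B. Myh6, the main myosin heavy chain of the adult mouse heart, had 12400, 8160 and 11500 CPM in WT JZL184 mice A, B and D and 9890, 13000 and 10600 CPM in CD VEH mice A, C and E. The groups overlapped, and the interval of the log2 fold-change of Myh6 ran from -0.37 to 0.25. Of 28 genes of calcium handling and ion channels, 15 were lower in CD VEH and 16 in WT JZL184 than in WT VEH (medians -0.36 and -0.41), and none was called in the direct comparison (median -0.06), in which 21 of the 28 were bounded and the median lay between -0.076 and -0.017 when each mouse was left out. Atp2a2, the calcium pump of the sarcoplasmic reticulum, had a log2 fold-change of -0.13 ± 0.11 (SE).

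The lists of energy metabolism and protein turnover had direct medians between -0.09 and 0.06, and between -0.144 and 0.094 when each mouse was left out. All 80 tested genes of the nuclear-encoded respiratory chain, all 78 of the mitochondrial ribosome and all 37 proteasome subunits had intervals within 0.5 of 0, with medians of -0.09, -0.08 and -0.07 and no called gene in these 3 lists, beside 85.7% of all tested genes so bounded. Of the 13 protein genes of the mitochondrial genome, 12 were bounded in this way (median 0.06). Of 28 genes of fatty acid uptake and oxidation, 22 were bounded (median -0.02, values from -0.36 to 0.40), and 20 of 22 genes of folliculin and mTORC1 signalling were (median 0.00).

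**Figure D2:**
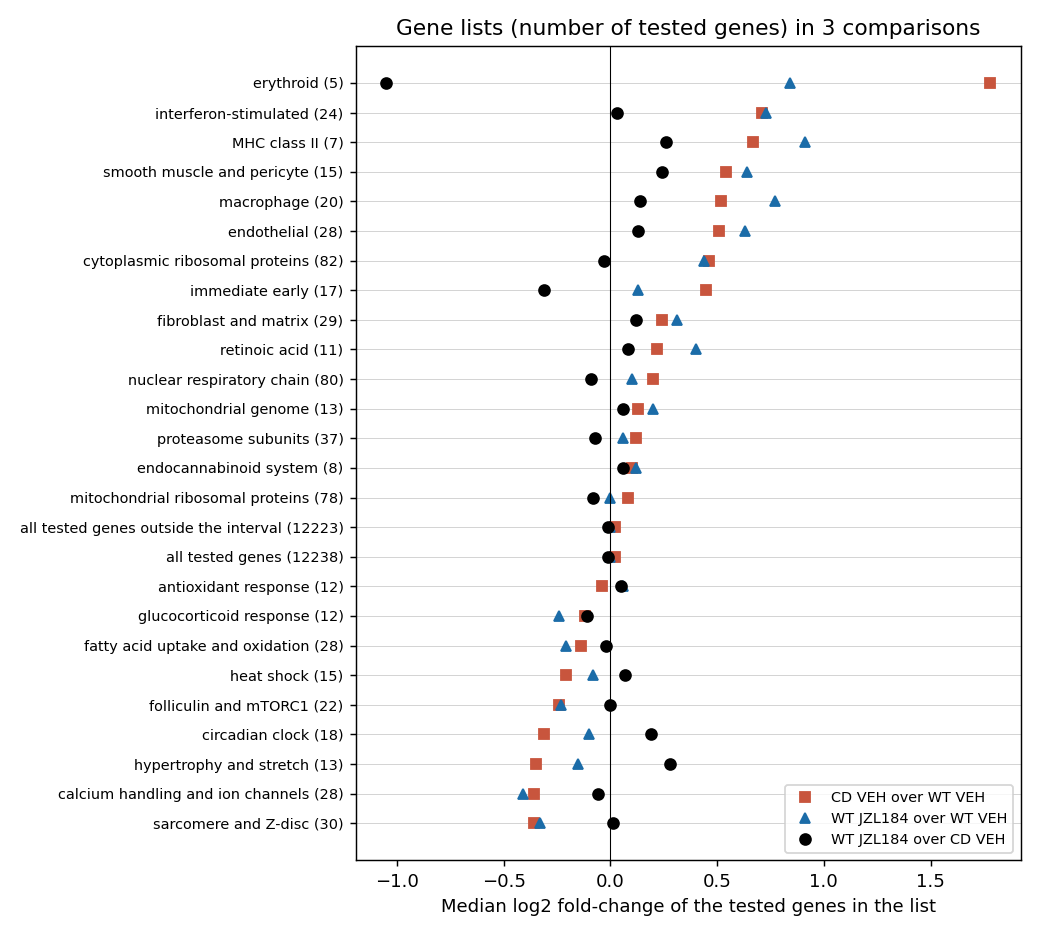
Median log2 fold-change (x axis) of the tested genes of each list (y axis, number of tested genes in parentheses) for CD VEH over WT VEH (red squares), WT JZL184 over WT VEH (blue triangles) and WT JZL184 over CD VEH (black circles); the first and the second share the WT VEH mice. The black circles of the ribosomal protein (-0.03), interferon-stimulated (0.03) and sarcomere (0.01) lists lie near 0, where the other symbols of the same list lie at 0.44 or more, or at -0.33 or less.

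The endothelial, smooth muscle, macrophage and MHC class II lists had direct medians above 0 with no called gene, beside 0.384% of all tested genes called. None of the 28 endothelial genes was called, but their median was 0.13 and 8 of them did not overlap between the groups, beside 1555 of all tested genes (12.7%). This median was 0.046 without WT JZL184 mouse B and 0.061 without CD VEH mouse C. The summed CPM of 5 endothelial markers (Pecam1, Cdh5, Kdr, Flt1 and Emcn) lay between 768 and 781 in WT JZL184, between 634 and 698 in CD VEH, between 509 and 519 in WT VEH and between 498 and 569 in CD JZL184. The WT JZL184 hearts were therefore above the CD VEH hearts in this sum, and both were above the remaining mice. In these whole-tissue samples, more cells of a type and more RNA per cell cannot be told apart.

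Of the other cell-type lists, that of smooth muscle and pericytes had a direct median of 0.24 over 15 genes, that of macrophages 0.14 over 20 genes, that of MHC class II 0.26 over 7 genes and that of fibroblasts 0.12 over 29 genes. None of their genes was called except Ccn2 of the fibroblast list. Without WT JZL184 mouse B the medians were -0.043 for macrophages, 0.043 for MHC class II and -0.009 for fibroblasts, and without WT JZL184 mouse A they were 0.314, 0.492 and 0.213. Without CD VEH mouse C those of macrophages and fibroblasts were 0.054 and 0.069, without CD VEH mouse E those of macrophages and MHC class II were 0.242 and 0.472, and without CD VEH mouse A that of MHC class II was 0.173. None of the 7 MHC class II genes was bounded within 0.5. The 2 tested lymphocyte and neutrophil genes had values of -1.26 and 0.20, and the summed markers of these cells overlapped, at 1.24 to 4.44 CPM in WT JZL184 and 1.89 to 8.82 CPM in CD VEH. Lyz2, the macrophage lysozyme, had 178, 308 and 249 CPM in WT JZL184 and 185, 166 and 229 CPM in CD VEH, so its groups overlapped. Summed markers of nerve and Schwann cells lay lower in WT JZL184 (4.89 to 5.52 CPM) than in CD VEH (5.64 to 6.38 CPM), and those of adipocytes were near 0 in both (0.143 to 0.433 and 0.529 to 2.08 CPM). The 5 erythroid genes had a median of -1.05, with none called, and a median of 0.695 without CD VEH mouse A.

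Lists of acute responses and of mechanical load held 2 called genes, Acta1 and Ccn2. The 17 immediate early genes, which are transcribed within minutes of a stimulus, had a median of -0.31, and 6 of them were bounded within 0.5. Their median was -0.203 without CD VEH mouse A. The 18 circadian clock genes had a median of 0.19 with values up to 1.02, and 2 of them were bounded. It was 0.316 without CD VEH mouse C and 0.122 without WT JZL184 mouse B. The 15 heat shock genes had a median of 0.07, with a lowest value of -1.79 and 8 of them bounded. This median was -0.166 without WT JZL184 mouse A, -0.061 without CD VEH mouse A and 0.162 without WT JZL184 mouse B. Of 13 genes of hypertrophy and stretch, these 2 were called, beside 0.384% of all tested genes, and the median was 0.28. Without CD VEH mouse E neither was called (edgeR adjusted p = 0.077 and 0.0943). Ankrd1, the stretch-responsive ankyrin repeat gene of cardiomyocytes, was the most abundant of them and had 878, 661 and 577 CPM in WT JZL184 and 491, 506 and 586 CPM in CD VEH, which overlapped (log2 fold-change 0.42 ± 0.14, edgeR adjusted p = 0.286). The lists of glucocorticoid response (12 genes, median -0.11) and retinoic acid (11 genes, 0.08) also had no called gene. The first median was -0.249 without WT JZL184 mouse B, -0.197 without CD VEH mouse A and -0.049 without WT JZL184 mouse D, and the second was 0.021 without WT JZL184 mouse B and 0.153 without CD VEH mouse C.

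The genes of the deleted interval separated the groups most evenly. The interval was taken as chr5:134237834-135350044 (GRCm38), from the start of Gtf2i to the end of Fkbp6, and not from mapped ends of the deletion. In the table were 25 of its genes, of which 15 were tested. All 15 were DEGs, beside 0.384% of all tested genes, and did not overlap between the groups, beside 12.7% of all tested genes. Their log2 fold-changes ran from 0.63 to 1.13, with a median of 0.93. At this median CD VEH hearts had 52.3% of the level in WT JZL184 hearts.

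Gtf2i, the general transcription factor TFII-I at one end of the interval (chr5:134237834-134314760), had 99.5, 93.9 and 103 CPM in WT JZL184 mice A, B and D and 53.8, 57.3 and 51.2 CPM in CD VEH mice A, C and E. Its log2 fold-change was 0.87 ± 0.06 (SE, edgeR adjusted p = 1.32e-05). Baz1b, a chromatin remodelling subunit, had 55.4, 50.2 and 58.1 CPM in WT JZL184 and 26.2, 25.8 and 26 CPM in CD VEH (log2 fold-change 1.07). Eln, which encodes elastin, had 37.8, 51.8 and 42.1 CPM in WT JZL184 and 15.8, 21.6 and 26.5 CPM in CD VEH. The lowest WT JZL184 heart thus lay above the highest CD VEH heart for each of the 3 genes. Eln was the gene of the interval with the largest spread (log2 fold-change 1.04 ± 0.19, edgeR adjusted p = 0.0333). Its adjusted p was 0.103 when CD VEH mouse C was left out.

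A pair of transcription factor genes differed least within the interval. Gtf2ird1, a relative of Gtf2i, had a log2 fold-change of 0.63 ± 0.09, with 8.17, 7.41 and 9.29 CPM in WT JZL184 and 5.06, 5.26 and 5.75 CPM in CD VEH. Mlxipl, which encodes the carbohydrate-responsive factor ChREBP, had 13.7, 11.7 and 15.4 CPM in WT JZL184, 8.12, 8.24 and 8.21 CPM in CD VEH and 20.6 and 21.5 CPM in WT VEH. WT JZL184 hearts thus lay between CD VEH and WT VEH hearts in Mlxipl, whose log2 fold-change was 0.73 ± 0.09. They also did so in Gtf2i (128 and 124 CPM in WT VEH), Baz1b (72.3 and 68.4 CPM) and Gtf2ird1 (11 CPM in both WT VEH hearts). Of the 15 tested genes of the interval, 4 were called lower and 1 higher in WT JZL184 than in WT VEH. Outside the interval 13.2% of genes were called lower and 14.7% higher.

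The remaining 10 tested genes had log2 fold-changes between 0.87 and 1.13. They were the RNA helicase cofactor gene Eif4h (0.93), the cytoskeletal genes Clip2 (1.05) and Limk1 (0.88), the replication factor gene Rfc2 (0.97), the syntaxin gene Stx1a (1.13), the hydrolase gene Abhd11 (0.93), the rRNA methyltransferase gene Bud23 (0.87), and Dnajc30 (1.0), Tbl2 (0.96) and Bcl7b (0.89). Bud23 and Dnajc30 overlap each other and Rfc2 overlaps Lat2, and the strand setting of the counting is not given in the sources used here, so reads of such pairs cannot be told apart. Of the 10 genes below the filter, Lat2 (1.28 ± 0.194 CPM, SD, n = 3, in WT JZL184 and 0.591 ± 0.148 in CD VEH), Mettl27 (1.06 ± 0.331 and 0.601 ± 0.167), Fzd9 (0.612 ± 0.147 and 0.237 ± 0.0623) and Vps37d (0.382 ± 0.0592 and 0.196 ± 0.0224) had the largest levels besides Fkbp6. Syna was at 0.11 ± 0.0179 CPM in WT JZL184 and 0.052 ± 0.0182 in CD VEH, while Cldn3, Cldn4, Cldn13 and Tmem270 were at or below 0.0249 CPM in each of the 11 mice.

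**Figure D3:**
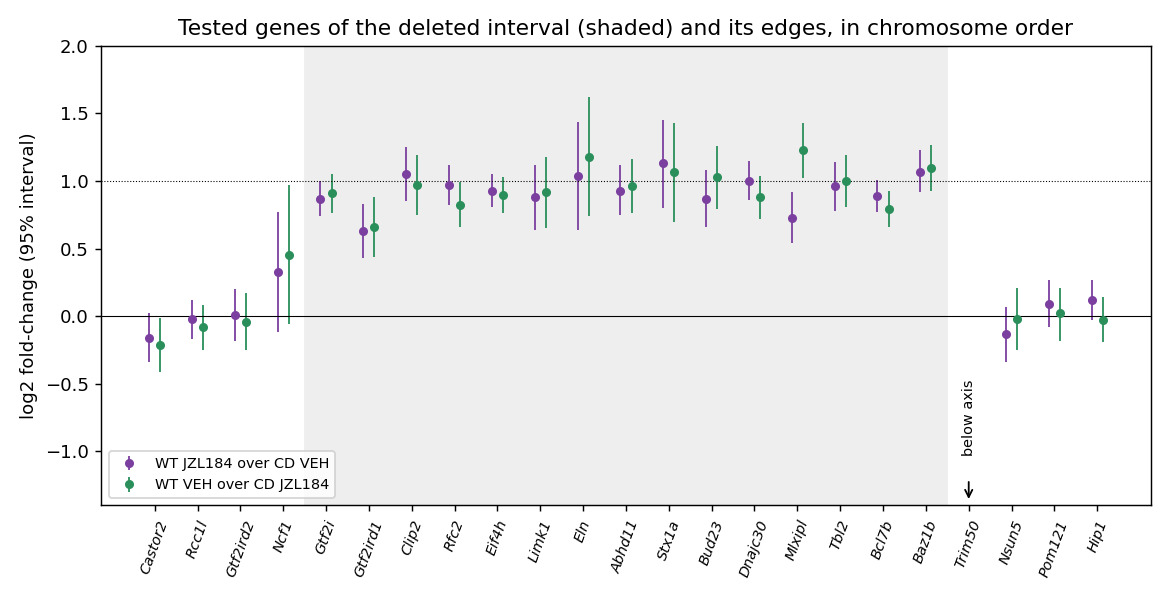
Log2 fold-change with its 95% interval (y axis) of the tested genes of the deleted interval (shaded) and of its edges, in chromosome order (x axis), for WT JZL184 over CD VEH (purple) and WT VEH over CD JZL184 (green), which share no mouse; the dotted line marks 1, and Trim50 lies below the axis. Every shaded gene lies above 0 in both comparisons, between 0.63 and 1.13 in the first.

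At the edges of the interval Trim50 was the single called gene, beside 0.262% of the tested genes outside the interval. Castor2, Rcc1l, Gtf2ird2 and Ncf1 on the Gtf2i side had log2 fold-changes of -0.16, -0.02, 0.01 and 0.33, and Nsun5, Pom121 and Hip1 on the other side had -0.13, 0.09 and 0.12, none of them called. The interval of Ncf1 ran from -0.12 to 0.77. Trim50 (chr5:135353295-135368005), a ubiquitin ligase gene outside the interval, had 6.77, 6.2 and 6.91 CPM in CD VEH mice A, C and E, whereas WT JZL184 mice A, B and D had 0.013, 0 and 0.0569 CPM. Summed over the mice of each group these were 1655 counts against 6, a ratio per library size of 261 (exact 95% interval 120 to 714, counting error only). Trim50 was thus near its detection floor in WT JZL184 and measured in every CD VEH heart.

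Fkbp6, an immunophilin gene known for its role in the germ line, is the last gene of the interval and also had its higher level in the CD VEH hearts. It was below the filter, with 0.83, 0.787 and 0.975 CPM in CD VEH mice and 0.013, 0.0694 and 0.0228 CPM in WT JZL184 mice, or 216 counts against 8 (ratio 25.6, exact 95% interval 12.8 to 60). It goes against the direction of the 15 tested genes of the interval. In the fit without a filter, 7 of 6842 genes below it were called by edgeR, Fkbp6 (adjusted p = 2.03e-05) and Lat2 (0.0401) in the interval and, named after their values were seen, Klk1b26, Mstn, Cyp2ab1, Nlrp5 and Ly9 outside it. The start sites of Fkbp6 and Trim50 lie 3251 bases apart and the genes are read away from each other. CD JZL184 hearts, with 1581 counts of Trim50 and 250 of Fkbp6, and WT VEH hearts, with 16 and 5, showed the same pattern, with both genes higher in the CD mice of each treatment.

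The 250 bases before the RefSeq start of Fkbp6 are shown because this start site faces the end of the interval next to Trim50. The end of the deletion itself was not mapped here. They lie at chr5:135350045-135350294 (GRCm38.p6, minus strand) and are printed 5′ to 3′ in the direction of the gene, with each E-box (CACGTG) in capitals.
Fkbp6: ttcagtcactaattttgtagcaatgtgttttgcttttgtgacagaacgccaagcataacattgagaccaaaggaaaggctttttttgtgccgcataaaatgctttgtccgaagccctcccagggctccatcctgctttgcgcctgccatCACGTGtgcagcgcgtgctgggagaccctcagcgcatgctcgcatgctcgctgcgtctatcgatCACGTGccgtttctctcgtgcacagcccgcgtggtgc
The 2 E-boxes start 101 and 37 bases before the start site. At least 1 E-box is found in 6.02% of 32851 mouse promoter windows of this length, whereas the TATA box (TATAAA, 12.4%) and the CCAAT box (CCAAT, 33.8%), searched on both strands, were not found in this window. These letters describe the reference sequence and were not tied to the counts. Trim50 had no promoter entry among the sequences used.

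Outside the interval, the 32 DEGs lay on 16 chromosomes, and on chromosome 5 only Trim50 and Grk3, which is 21.2 Mb away, were among them. They can be described by how the other groups lined up. In 18 of them all 5 WT mice lay on one side of all 6 CD mice (151 of the 12223 tested genes, or 1.24%, did so), in 12 the WT JZL184 mice lay apart from the 8 other mice (4.71% of all), and in 2 the CD VEH mice did (2.95% of all). The calls compared the WT JZL184 and CD VEH mice, so that part of each pattern was given, and the other 5 mice entered the fit through the scaling, the filter and the dispersion. With the compared groups only, 18 genes were called, 16 of them among the 32.

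Besides Trim50, the largest difference in the first set was that of Acta1 (chr8:123891769-123894751), which encodes skeletal alpha-actin, an actin of the sarcomere that is abundant in skeletal muscle and present at a lower level in the heart. WT JZL184 mice A, B and D had 178, 192 and 158 CPM, whereas CD VEH mice A, C and E had 22.3, 60.2 and 54.3 CPM. The lowest WT JZL184 heart, at 158 CPM, lay far above the highest CD VEH heart, at 60.2 CPM. The log2 fold-change was 1.95 ± 0.34 (edgeR adjusted p = 0.0301). WT VEH hearts had 223 and 204 CPM and CD JZL184 hearts 31.2, 74.8 and 45.6 CPM. Without CD VEH mouse E the adjusted p of Acta1 was 0.077. Acta1 lies on the opposite strand within the long annotated unit of Gm20388, which also covers Crispld2, and reads of such genes cannot be told apart without the strand.

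The sequence before the RefSeq start of Acta1 is shown as that of the DEG with the highest log2 fold-change of WT JZL184 over CD VEH. It lies at chr8:123894776-123895025 (GRCm38.p6, minus strand), printed 5′ to 3′, with the TATA box (TATAAA) and the CArG box, the binding motif of serum response factor, in capitals.
Acta1: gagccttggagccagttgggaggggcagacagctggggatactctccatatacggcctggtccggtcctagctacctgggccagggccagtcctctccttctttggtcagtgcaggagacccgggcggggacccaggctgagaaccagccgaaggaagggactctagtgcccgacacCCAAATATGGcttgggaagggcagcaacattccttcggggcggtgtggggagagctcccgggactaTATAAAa
The CArG box starts 73 bases and the TATA box 7 bases before this start site, and the motifs do not overlap. The GENCODE start of Acta1, at 123894751, lies further downstream, so both motifs are further from that start. A CArG box was found in 1.47% of all windows of this length, on either strand. Its presence is a description of the sequence only.

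Tmod4, a tropomodulin that caps actin filaments in skeletal muscle, had the same pattern as Acta1. It had 17.8, 18.2 and 15.2 CPM in WT JZL184 and 9.72, 9.21 and 8.14 CPM in CD VEH (log2 fold-change 0.92 ± 0.1, edgeR adjusted p = 0.00108). WT VEH hearts had 14.2 and 14.9 CPM, so the treated WT hearts were at or above the vehicle WT hearts and CD VEH hearts were below both. Summed skeletal muscle markers (Myh4, Tnnt3, Mylpf and Actn3) lay between 0.939 and 1.4 CPM in WT JZL184 and between 1.2 and 1.33 CPM in CD VEH, near 0 in both.

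Among the other genes higher in both WT groups were Rtn4r, the Nogo receptor, Fam81a and Cacna1d, which encodes an L-type calcium channel subunit, and these 3 were chosen after their values were seen. Fam81a had 6.22, 7.8 and 6.76 CPM in WT JZL184 and 1.7, 2.64 and 3.31 CPM in CD VEH (log2 fold-change 1.44 ± 0.18, edgeR adjusted p = 0.00273). Rtn4r had 5.49, 5.18 and 3.87 CPM against 1.2, 2.23 and 1.42 CPM (1.58 ± 0.23). Cacna1d, which overlaps Chdh and Dcp1a, had 1.58, 1.57 and 1.61 CPM against 0.89, 0.934 and 0.764 CPM (0.88 ± 0.14). Their WT JZL184 and CD VEH hearts did not overlap, beside 12.7% of all tested genes, which is no separate result for genes chosen among the DEGs. Grk3, a kinase of G-protein-coupled receptors, completed the genes with this pattern that were higher in WT, with a log2 fold-change of 0.50 ± 0.08.

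The genes lower in WT mice of both treatments included a second kinase of this family. Grk5, which phosphorylates activated G-protein-coupled receptors in cardiomyocytes (chr19:60889749-61095968), had 20.2, 24.2 and 25 CPM in WT JZL184 and 37.2, 37 and 37.4 CPM in CD VEH (log2 fold-change -0.68 ± 0.1, edgeR adjusted p = 0.0097). WT VEH hearts had 19.1 and 23 CPM, within or just below the range of WT JZL184, and CD JZL184 hearts 33.8, 42.4 and 37.2 CPM. Grk5 overlaps Zfp950, which is read from the opposite strand and had 22.4 to 24.3 CPM in WT JZL184 and 20.1 to 23.8 CPM in CD VEH, and reads of both cannot be told apart without the strand. Slc16a7, the monocarboxylate transporter MCT2 (chr10:125219270-125389465), had 5.49, 4.77 and 6.33 CPM in WT JZL184 and 14.4, 12.9 and 12.5 CPM in CD VEH (-1.26 ± 0.13, edgeR adjusted p = 0.000411). The lowest of the 6 CD hearts had 11.4 CPM of Slc16a7 and the highest of the 5 WT hearts 7.19 CPM.

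Alox5, the 5-lipoxygenase that turns arachidonic acid into leukotrienes, had 7.79, 8.78 and 11.4 CPM in WT JZL184 and 14.6, 16.7 and 17.5 CPM in CD VEH (log2 fold-change -0.80 ± 0.13, edgeR adjusted p = 0.0233). Leaving out CD VEH mouse E gave Alox5 an adjusted p of 0.0909. The cadherin gene Cdh22 was low and variable, with 0.6, 1.05 and 0.82 CPM against 2.5, 4.44 and 2.49 CPM (-1.93 ± 0.31). Also lower in the WT mice were Mpnd (-0.48), the anoctamin gene Ano10 (-0.55), Smco1 (-0.42), and, chosen after their values were seen together with Slc16a7, Cdh22 and Grk3, Plet1 (-1.08), Fam122b (-1.05), the melanopsin gene Opn4 (-0.75) and Nubp1 (-0.49), which acts in iron-sulphur protein assembly. Mpnd overlaps Sh3gl1 and Nubp1 overlaps Tvp23a. For each of these 7 genes the lowest CD VEH heart lay above the highest WT JZL184 heart. They were chosen among the DEGs of this comparison, so this is no separate result, and 12.7% of all tested genes did not overlap. Without CD VEH mouse E, Ano10 had an adjusted p of 0.123. Opn4 was called in 4 of 15 settings of the analysis (edgeR adjusted p up to 0.222), Smco1 in 9 of 16 (up to 0.111) and Nubp1 in 10 of 16 (up to 0.202).

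**Figure D4:**
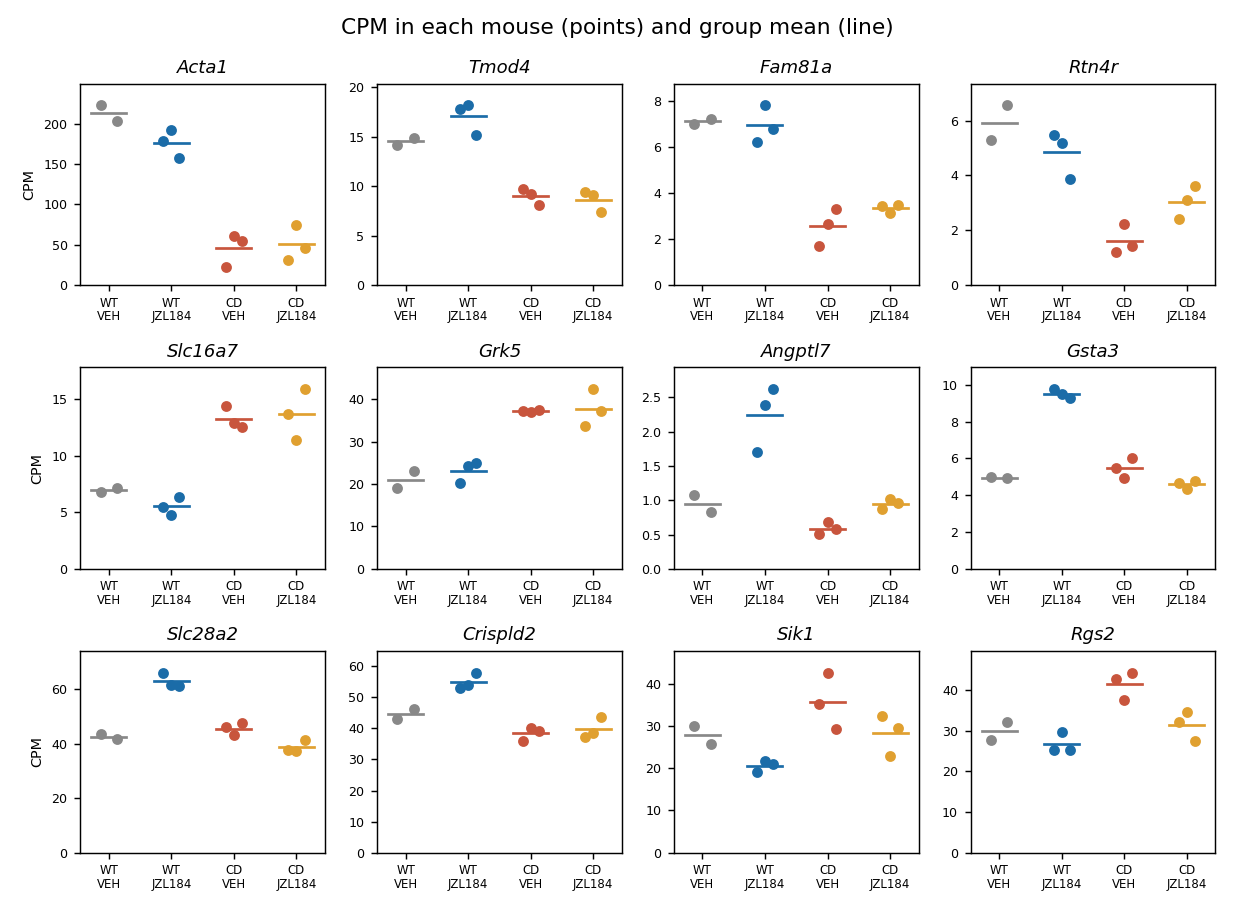
CPM (y axis, from 0) of 12 DEGs in each mouse (points) by group (x axis), with the group mean as a line. In Acta1, Tmod4, Fam81a, Rtn4r, Slc16a7 and Grk5 the WT mice stand apart from the CD mice in both treatments, in Angptl7, Gsta3, Slc28a2, Crispld2 and Sik1 the WT JZL184 mice stand apart from the other 8, and in Rgs2 the CD VEH mice do.

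In the second set the WT JZL184 hearts stood apart from all other hearts, 9 genes being higher in them and 3 lower. Angptl7, a secreted angiopoietin-like protein (chr4:148495183-148500460), had 1.7, 2.39 and 2.62 CPM in WT JZL184 and 0.505, 0.676 and 0.576 CPM in CD VEH (log2 fold-change 1.93 ± 0.2, edgeR adjusted p = 0.000525). WT VEH hearts had 1.07 and 0.822 CPM and CD JZL184 hearts 0.866, 1.02 and 0.966 CPM, between both. Angptl7 lies on the opposite strand within an intron of Mtor, and unspliced reads of Mtor cannot be told apart from its own without the strand. It was named after its values were seen.

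Gsta3, a glutathione S-transferase that conjugates lipid peroxidation products (chr1:21240589-21265661), had 9.77, 9.48 and 9.31 CPM in WT JZL184 and 5.5, 4.91 and 6.02 CPM in CD VEH (log2 fold-change 0.80 ± 0.08, edgeR adjusted p = 0.000525). WT VEH hearts, at 4.99 and 4.92 CPM, and CD JZL184 hearts, at 4.34 to 4.75 CPM, lay with or below CD VEH. Gsta3 was the single called gene among 12 tested genes of the antioxidant response, beside 0.384% of all tested genes, and the median of this list was 0.05 (-0.004 to 0.077 when each mouse was left out). Slc28a2, a sodium-coupled nucleoside transporter, had 66.1, 61.6 and 61.1 CPM in WT JZL184 and 46.1, 43.3 and 47.5 CPM in CD VEH (0.46 ± 0.06, edgeR adjusted p = 0.00463). Crispld2 had 53, 54.1 and 57.9 CPM against 36.1, 40.2 and 39.2 CPM (0.51 ± 0.07, edgeR adjusted p = 0.00687).

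The other genes of this kind were less far from the CD VEH hearts or less stable. Ccn2, the connective tissue growth factor, had 67.1, 64.4 and 58 CPM against 45.6, 32.1 and 38.3 CPM (log2 fold-change 0.71 ± 0.12), and its adjusted p was 0.0943 without CD VEH mouse E. Cyp4b1, a cytochrome P450, had a log2 fold-change of 0.59 ± 0.11, Nt5dc2, which overlaps Stab1, one of 0.62 ± 0.1 and Dennd3 one of 0.35 ± 0.07. Without CD VEH mouse A, the adjusted p was 0.167 for Cyp4b1 and 0.0772 for Nt5dc2. Adgrl4, an adhesion receptor of endothelial cells, had 96.1, 91.6 and 94 CPM in WT JZL184 and 75.4, 74.2 and 73.5 CPM in CD VEH (0.34 ± 0.06, edgeR adjusted p = 0.0272). The summed endothelial markers moved in the same direction, at 768 to 781 CPM against 634 to 698 CPM, and their part in this difference was not tested.

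The other 3 genes of this set were lowest in WT JZL184. Sik1, a salt-inducible kinase, had 19, 21.6 and 21 CPM against 35.2, 42.6 and 29.4 CPM in CD VEH (log2 fold-change -0.80 ± 0.14, edgeR adjusted p = 0.0329). When CD VEH mouse A was left out its adjusted p was 0.0997. Fam78a, which overlaps Nup214, had a log2 fold-change of -0.42 ± 0.08, and the cadherin gene Cdh20, named after its values were seen, one of -0.97 ± 0.17. Fam78a was called in 7 of 16 settings, with an adjusted p of 0.167 without CD VEH mouse A, and Cdh20 in 11 of 16, with 0.122 without that mouse. In the third set, Rgs2, which limits signalling through Gq proteins, had 42.7, 37.5 and 44.3 CPM in CD VEH and 25.3, 29.7 and 25.2 CPM in WT JZL184 (-0.63 ± 0.1), and Acsl6, an acyl-CoA synthetase also named after its values were seen, had 7.11, 7.48 and 5.09 CPM against 10.7, 11.8 and 9.45 CPM (0.70 ± 0.13). The CD VEH hearts were thus the highest of all for Rgs2 and the lowest of all for Acsl6. Without CD VEH mouse E the adjusted p of Rgs2 was 0.0759.

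The endocannabinoid genes are given because JZL184 acts on an enzyme of this system. Of 14 such genes, 8 were tested and none was called, beside 0.384% of all tested genes. Their log2 fold-changes lay between -0.02 and 0.19, and 7 of 8 intervals lay within 0.5 of 0, beside 85.7% of all tested genes. Mgll, the target of JZL184, had 151, 195 and 176 CPM in WT JZL184 and 148, 166 and 144 CPM in CD VEH, whose ranges overlapped (0.19 ± 0.12, interval -0.08 to 0.46). WT VEH hearts had 99.6 and 123 CPM of Mgll. Abhd6, another hydrolase of 2-arachidonoylglycerol, had a log2 fold-change of 0.08 ± 0.12. The cannabinoid receptor genes Cnr1 and Cnr2 and the hydrolase gene Faah were below the filter, with means of 0.0125, 1.13 and 0.186 CPM in WT JZL184 and 0.016, 0.722 and 0.173 CPM in CD VEH.

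The comparison of WT VEH with CD JZL184 crosses the labels the other way and shares no mouse with that of WT JZL184 and CD VEH. A gene that differs in the same direction in both goes with the genotype label, and a gene that differs in opposite directions goes with the treatment label. A gene that differs in 1 of them and is near 0 in the other goes with neither, whatever its sign. Sik1 (-0.80 and -0.02) and Rgs2 (-0.63 and -0.07) are of this kind. The 15 genes of the interval were called in both, with a median log2 fold-change of 0.96 in WT VEH over CD JZL184. Outside the interval, 10 genes were called in that comparison (0.0818%), 6 of which were among the 32, namely Trim50, Acta1, Slc16a7, Grk5, Tmod4 and Mpnd.

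Of the 32 DEGs, 31 had the same sign in both comparisons, and the exception was Angptl7 (1.93 and -0.01). Among all tested genes outside the interval 58.1% had the same sign. In the second comparison 21 of the 32 had an unadjusted p under 0.05 in the same direction and none in the opposite direction, beside 9.56% of all tested genes with such a p in either direction. The 16 genes lower in WT JZL184 kept their sign in 16 of 16 and passed an unadjusted p under 0.05 in 13, and the 16 higher genes did so in 15 and 8. The median ratio of the second log2 fold-change to the first was 0.635 for the 32 genes, which were chosen in the first comparison. Of the 219 genes called by DESeq2, 188 (85.8%) had the same sign in its own second comparison.

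The difference between both comparisons was tested for every gene. With edgeR, 0 of 12238 genes were called, while 626 had an unadjusted p under 0.05. The difference was 1.94 ± 0.3 for Angptl7 (edgeR adjusted p = 0.203), 0.69 ± 0.13 for Gsta3 (0.486 by the same adjustment) and -0.78 ± 0.21 for Sik1 (0.921). DESeq2 called 5 genes (0.0409%), Gsta3, Angptl7 and, named after the test, Ahr, Dok4 and Fam84b. Acta1 differed by -0.13 ± 0.49 between both comparisons.

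**Figure D5:**
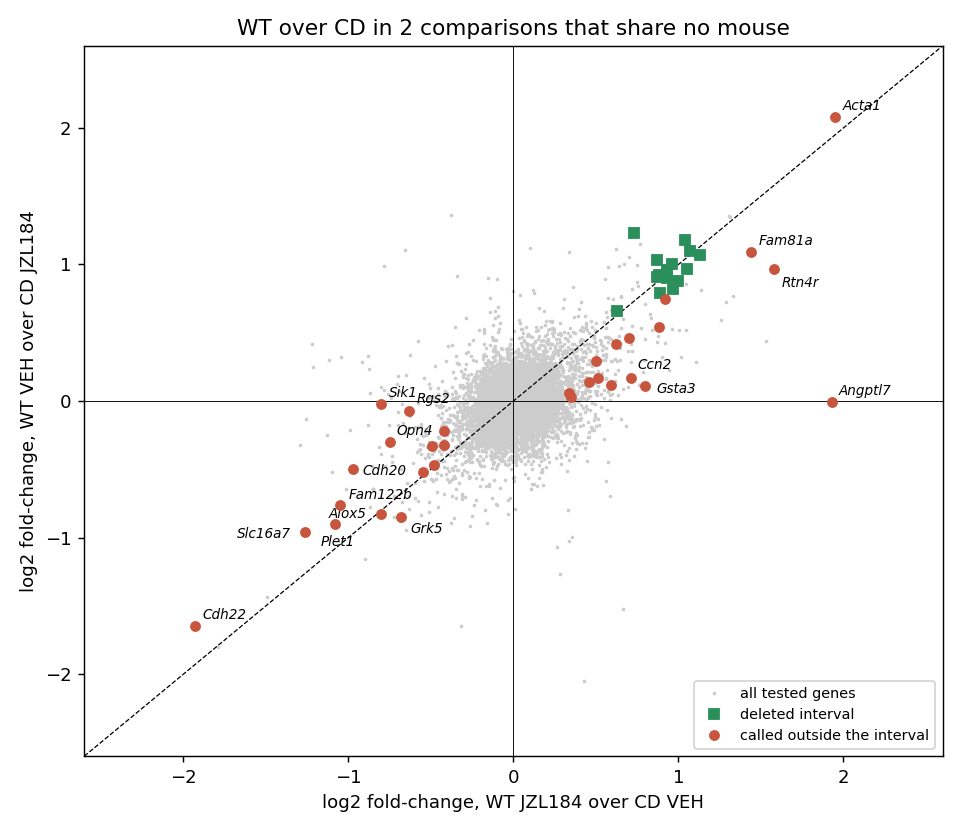
Log2 fold-change of WT VEH over CD JZL184 (y axis) against that of WT JZL184 over CD VEH (x axis) for the tested genes (grey), the 15 tested genes of the deleted interval (green squares) and the 32 DEGs outside it (red circles); the dashed line marks equal values, and 3 genes, Trim50 among them, lie beyond the axes. Of the 32 DEGs, 31 lie in the quadrants of equal sign, while Angptl7, Sik1 and Rgs2 lie near 0 on the y axis.

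Of the 32 DEGs, 10 were called in each of up to 16 settings of the analysis, and these were Trim50, Angptl7, Rtn4r, Fam81a, Slc16a7, Tmod4, Gsta3, Grk5, Crispld2 and Slc28a2. Dennd3 was called in 9 of 16 settings, Adgrl4 in 11 of 16 and Acsl6 in 12 of 16, with edgeR adjusted p of 0.171, 0.0997 and 0.0759 without CD VEH mouse A. Cacna1d was called in 11 of 15 and Grk3 in 12 of 16, with 0.0909 and 0.0835 without CD VEH mouse E, and Cdh22 in 14 of 16, with 0.073 without WT JZL184 mouse D. In the interval 13 of the 15 genes were, and Gtf2ird1 and Eln were not. None of the 47 genes changed sign in any setting.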

How the data were processed

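RNA from the hearts of 11 mice, labelled as ventricle, was sequenced on a HiSeq3000. The deposited table holds unnormalized estimated counts, which the authors obtained by running Salmon 0.7.2 against the GRCm38 transcripts of Ensembl 85 and by summing transcripts to genes in tximport 1.2.0. Its column names give a group code and a letter without a counterpart in the labels, so groups, not single samples, were matched. The study tested with DESeq2 1.26.0. Each mouse was taken as a replicate.

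After rounding, edgeR 4.0.16 under R 4.3.3 was used with TMM scaling and its quasi-likelihood test, with the 4 groups in 1 model without covariates and Benjamini-Hochberg adjustment. The filter required a mean CPM of 1 or more across the 11 mice, and the biological coefficient of variation was 9.45%. Distances used a prior count of 2. A floor of 3 counts and exact intervals cover counting error only. No transcript lengths from tximport were used. Positions came from GENCODE M21, which matched 22315 of 22608 genes, and promoters from RefSeq. The deleted interval was set to run from the start of Gtf2i to the end of Fkbp6, without mapped breakpoints.

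The members and lists were chosen with earlier results of these data known. Named genes are all genes of the interval and its edges, the endocannabinoid genes Mgll, Cnr1, Cnr2, Faah and Abhd6, up to 12 DEGs per direction with the largest log2 fold-changes, no overlap and a mean of 10 CPM or more over the 6 mice, and called or most abundant list members. Of the 32 DEGs the size rule covers 17, the lists 2 and neither 13, which are said to be named after their values were seen. Not every such gene is described.

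The alternatives were DESeq2 1.42.0, RLE and upper quartile factors, 3 other filters, no mitochondrial genes, the compared groups only, offsets for length and GC content (loess, span 0.5), stricter thresholds and leaving out each mouse. On simulated counts of 12238 genes for WT JZL184 against CD VEH, edgeR recovered 77% of genes changed by 0.5 and 98% of genes changed by 1 (log2), with 6.91% false calls.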

Additional observations from a re-analysis of the deposited data

Results flagged for a closer look

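Fkbp6, which is outside the tested genes because its mean lay under the filter, had a summed level in CD VEH hearts of 25.6 times that in WT JZL184 hearts (216 counts against 8) and stood out as a signal in data outside the main test. In the fit without a filter it was called (edgeR adjusted p = 2.03e-05). CD JZL184 hearts had 250 counts and WT VEH hearts 5. Groups of 3 mice are too small for the check for single outlying mice.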

How the results depend on the processing

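No paired analysis was possible because the columns of the table carry letters of unstated meaning in place of the replicate numbers of the labels, and the groups compared share a single letter. The 32 DEGs of WT JZL184 against CD VEH outside the interval became 219 with DESeq2, 55 without a filter, 18 with the compared groups only (12 higher and 6 lower, 16 of them shared), 12 at an adjusted p under 0.01 and 9 when a log2 fold-change of 1 or more in either direction was required, and 21 to 62 when each mouse was left out. RLE factors gave 37 (21 higher and 16 lower). The cause of these differences was not tested. WT VEH against CD JZL184, with 10 DEGs, gave 97 with DESeq2, 87 with the compared groups only, 2 under either stricter threshold and 1 to 7 without a mouse (1 without WT VEH mouse C, 3 without WT VEH mouse D or CD JZL184 mouse E and 6 without CD JZL184 mouse C). CD VEH against WT VEH, with 3467, gave 1063 and 65 under the stricter thresholds and 297 to 3558 without a mouse (1861 and 1946 without CD VEH mouse A or E, 297 and 1065 without WT VEH mouse C or D). WT JZL184 against WT VEH, with 3404, gave 1580 with the compared groups only (1028 higher and 552 lower), 1104 and 45 under the stricter thresholds and 551 to 4701 without a mouse (2095 without WT JZL184 mouse B, 551 and 953 without WT VEH mouse C or D). The 4 called list members became 2 to 8 without a mouse (2 without CD VEH mouse E and 8 without WT JZL184 mouse B). The ratio of distances stayed between 1.01 and 1.16 and the genes bounded within 0.5 between 9918 and 10260 when a mouse was left out. For single genes, 637 values under alternatives stayed past the threshold, 110 did not and 0 reversed. The simulation changed 100 genes by 0.5 and 100 by 1 on the log2 scale around otherwise equal group means, and edgeR recovered 77% of the former. This share depends on the number of changed genes and does not carry over to the real comparison. There, 251 genes outside the interval had an absolute log2 fold-change over 0.5 and 32 genes were called. Differences of 0.5 or more could therefore also be missed.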
